A study of Rattus norvegicus with 83 samples.

Results

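The globin genes described here are the 9 rows of the deposited count table whose symbols are Hbz, Hbe1 or Hbg1 or start with Hba or Hbb, out of 17483 symbols in all. Their names place 3 of them among the embryonic globins (Hbz, alpha-like, and Hbe1 and Hbg1, beta-like). The other 6 are adult globins: Hba-a1, Hba-a2 and Hba-a3 on the alpha side and Hbb, Hbb-b1 and Hbb-bs on the beta side. Each of the 9 passed the filter on low counts at each stage and over both stages. Bulk RNA barcoding and sequencing (BRB-seq), a pooled method that reads transcripts near their 3′ ends, gave counts for 83 libraries of offspring of Sprague-Dawley rat dams, labelled testis. Dams were gavaged daily with corn oil (vehicle), with methimazole at 8 or 16 mg per kg body weight (MMI8, MMI16) or with amitrole at 25 or 50 mg per kg (Ami25, Ami50), and both compounds are known inhibitors of thyroid hormone synthesis. Dosing began on gestational day 7, and offspring were sampled on gestational day 21 (GD21, 6 libraries in each of the 5 groups) or on pup day 16 (PD16, 10 libraries each for vehicle, MMI8 and MMI16, 11 for Ami25 and 12 for Ami50). The treatment protocol gives pup day 22 as the end of dosing and counts the expected birth, gestational day 23, as pup day 1. Doses refer to the dam, and litter membership of the offspring was not used here, so that the p-values below measure the spread between libraries and littermates may be among them.

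Haemoglobin is a tetramer of alpha-like and beta-like chains, and red cells make both in near balance. In rodents the first red cells, which form in the yolk sac, carry embryonic chains such as zeta (Hbz), epsilon (Hbe1) and gamma (Hbg1). Red cells of the fetal liver and the bone marrow carry adult chains. In a solid tissue globin transcripts come mainly from the blood left in it, so that in these bulk libraries fewer red cells and less globin RNA per red cell cannot be told apart.

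Marker transcripts ran against the tissue label, and the embryonic globins described below raise the same doubt for the stage labels. The labels are kept below as names only. Summed levels of 6 adrenal cortex markers ran from 2190 to 31528 CPM (counts scaled to a library total of 1000000) over all libraries, and those of 5 adrenal medulla markers from 667 to 2108 CPM. The 8 testis markers summed to between 1.71 and 232 CPM, and in each group but PD16 vehicle 1 to 4 of them had no count at all. Eif2s3y, a gene of the Y chromosome, fell below 10 CPM in 8 libraries, all among the 12 of PD16 Ami50. The libraries held between 202270 and 1627114 counts each. Albumin (Alb), the main secreted protein of liver, was at 200 CPM or more in 15 libraries, 10 of GD21 and 5 of PD16.

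RefSeq names (assembly GRCr8) place the alpha-like genes on chromosome 10 in the order Hbz, Hba-a1, Hba-a2, Hba-a3 in the direction of transcription. The beta-like genes lie on chromosome 1 in the order Hbe1, Hbe2, Hbg1, Hbb, Hbbl1, Hbb-b1, Hbb-bs, with the embryonic genes at the 5′ end of each cluster. RefSeq promoters were found for 8 of the 9 members, all but Hbg1. The 130 bases before the transcript start of 6 of them are shown 5′ to 3′, since the embryonic members (Hbz, Hbe1) and the adult members moved in opposite directions below. Capitals mark the letters CCAAT and CACCC, known from globin promoters, and the TATA-like ATAAAA, on either strand.
Hbz: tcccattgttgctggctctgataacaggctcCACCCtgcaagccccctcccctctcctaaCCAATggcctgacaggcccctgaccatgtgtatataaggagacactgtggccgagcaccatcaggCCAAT
Hbe1: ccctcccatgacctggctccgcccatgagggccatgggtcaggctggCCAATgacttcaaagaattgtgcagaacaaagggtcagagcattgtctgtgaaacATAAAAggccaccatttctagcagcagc
Hba-a1: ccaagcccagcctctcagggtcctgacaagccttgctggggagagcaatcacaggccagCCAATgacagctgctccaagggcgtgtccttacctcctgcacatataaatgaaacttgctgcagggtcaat
Hba-a2: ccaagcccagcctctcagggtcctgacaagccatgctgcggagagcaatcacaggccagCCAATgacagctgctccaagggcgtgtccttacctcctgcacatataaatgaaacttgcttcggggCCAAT
Hbb: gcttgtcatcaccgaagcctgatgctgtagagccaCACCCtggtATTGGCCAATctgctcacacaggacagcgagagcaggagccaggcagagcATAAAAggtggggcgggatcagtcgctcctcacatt
Hbb-bs: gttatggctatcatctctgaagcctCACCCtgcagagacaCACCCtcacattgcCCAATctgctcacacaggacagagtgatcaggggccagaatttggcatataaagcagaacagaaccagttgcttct
The stretches lie at chr10:15849758-15849887 for Hbz, chr1:167696281-167696410 for Hbe1, chr10:15842581-15842710 for Hba-a1, chr10:15829139-15829268 for Hba-a2, chr1:167663722-167663851 for Hbb and chr1:167631631-167631760 for Hbb-bs, all on the minus strand of GRCr8. The upstream stretches of Hba-a1 and Hba-a2 matched at 125 of 130 positions (96.2%) without gaps. Within 250 bases upstream, searched on both strands, CCAAT was present in all 8 promoters, against 34.0% of 33469 rat promoters. CACCC was found in 6 of the 8 (not in Hbe1 or Hba-a3), against 49.2%, and ATAAAA in Hbe1 and Hbb, against 18.6%. The GATA-type word AGATAA was in none of the 8 and in 10.3% of all promoters. Other GATA-type words were not searched, and the printed Hbz stretch holds one of them, TGATAA, left unmarked. Other TATA-type words were not searched either, and the printed Hbz, Hba-a1, Hba-a2 and Hbb-bs stretches hold TATAA, left unmarked. CCAAT and CACCC overlap in none of the printed stretches, while the ATTGGCCAAT run of Hbb holds CCAAT on both strands. These letters are a description of the sequence, and no binding was measured.

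Hbz encodes zeta globin, the embryonic alpha-like chain. In PD16 vehicle libraries it ranged from 464 to 967 CPM (median 639, n = 10). PD16 MMI8 libraries ran from 576 to 1194 (median 804) and PD16 MMI16 libraries from 356 to 1469 (median 930). The other 7 groups were far lower. GD21 vehicle libraries held 4.91 to 12.7 CPM (median 7.14, n = 6), PD16 Ami25 libraries 2.28 to 21.6 (median 12.6) and PD16 Ami50 libraries 0 to 25.1 (median 8.41). Levels in the 30 vehicle and methimazole libraries of PD16 did not overlap those of the other 53, the highest of which was 51.1 CPM in GD21 Ami50.

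Hbe1, the embryonic beta-like epsilon chain, was the most abundant embryonic member in every group. Its PD16 vehicle libraries ranged from 3684 to 7277 CPM (mean 4896 ± 1162, SD, n = 10). PD16 MMI8 averaged 5980 CPM (range 4157 to 7361) and PD16 MMI16 averaged 5550 (range 3265 to 7176). PD16 Ami25 libraries held 65.3 to 267 CPM (median 146) and PD16 Ami50 libraries 27.5 to 229 (median 78.4). At GD21 the vehicle libraries ran from 75.2 to 188 CPM (median 107), and over all GD21 libraries the range was 27.1 to 860. Again the 30 vehicle and methimazole libraries of PD16 stood clear of the other 53. The sets of 30 and 53 were put together after the values had been seen, and no test was made between them. How many of all genes separate these sets was not counted, for Hbz and Hbe1 or for any gene below.

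Hbg1, the other embryonic beta-like chain, was the least abundant embryonic member in PD16 vehicle. It ran from 47.2 to 143 CPM in PD16 vehicle libraries (mean 85.6 ± 32.5, n = 10), against 5.50 to 22.4 CPM in GD21 vehicle libraries (mean 12.8 ± 6.56, n = 6). PD16 Ami25 and Ami50 averaged 9.54 and 11.5 CPM. Counts in the low groups were small: all 6 GD21 vehicle libraries together held 86 Hbg1 counts and 53 Hbz counts. The set of 30 overlapped the other 53 for Hbg1 through 1 library, PD16 MMI16 replicate 10, with 4 Hbg1 counts (19.8 CPM) and the lowest total of all libraries.

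**Figure D1:**
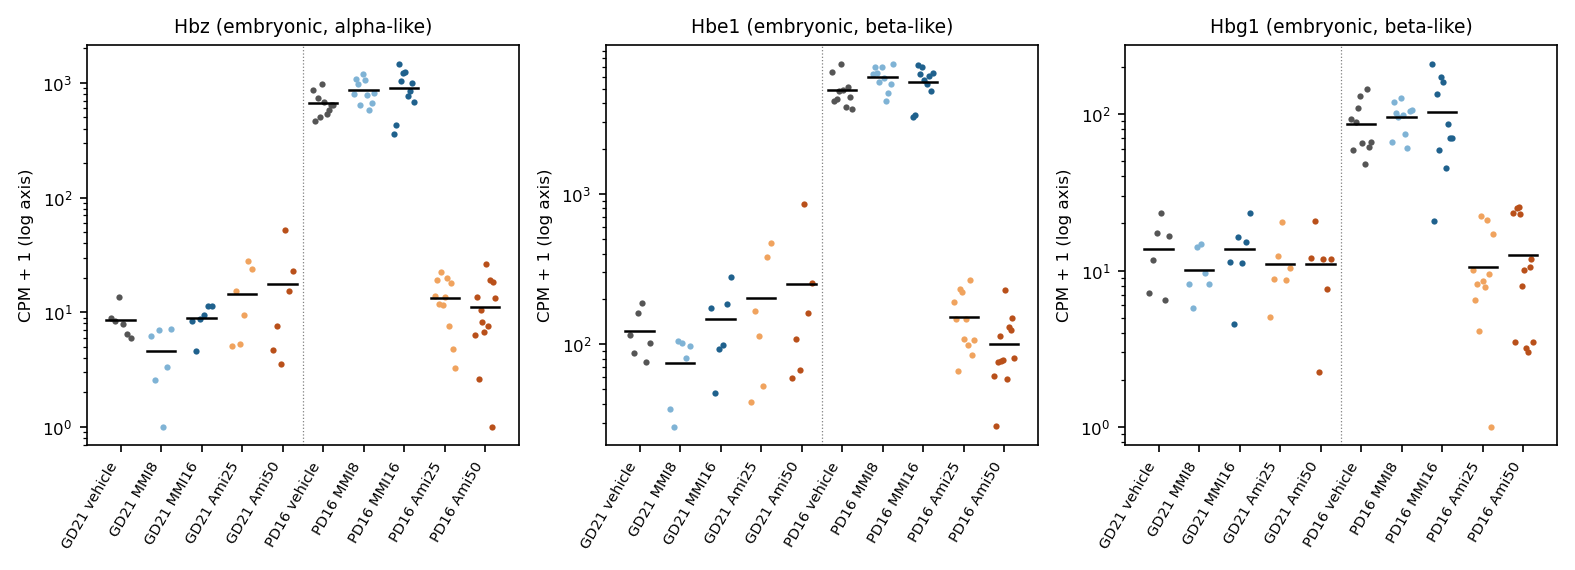
Level of each embryonic globin per library (points; CPM + 1 on a log axis) in the 10 groups, with the group mean as a line. The PD16 vehicle, MMI8 and MMI16 libraries sit apart from the rest for Hbz, at 356 CPM or more, and for Hbe1, at 3265 CPM or more, while for Hbg1 1 of them, at 19.8 CPM, lies among the low libraries, and the amitrole libraries of PD16 sit among the GD21 libraries.

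The embryonic members kept Hbe1 as their main component but changed in the rest of their makeup. Hbe1 made up 80.4% to 87.5% of embryonic counts in the group means of all 10 groups. Hbz made up 11.8% ± 1.81 of embryonic counts in PD16 vehicle libraries (range 9.14% to 14.6%), against 5.61% ± 1.60 in GD21 vehicle libraries (range 3.17% to 7.07%). Hbg1 went the other way, with 1.51% ± 0.434 in PD16 vehicle (range 1.09% to 2.43%) against 8.86% ± 2.92 in GD21 vehicle (range 4.81% to 12.9%). Neither range overlapped between the vehicle groups. Across all 83 libraries both shares overlapped, and the Hbz share reached 29.4% in a PD16 Ami50 library.

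Adult alpha chains were carried almost wholly by Hba-a1 and Hba-a2. Hba-a1 averaged 15599 ± 2060 CPM in PD16 vehicle libraries (range 11952 to 17522), against 40519 ± 10332 in GD21 vehicle (range 27900 to 53908), 43180 ± 8351 in PD16 Ami25 and 40337 ± 8530 in PD16 Ami50. Hba-a2 was likewise lowest in PD16 vehicle, at 10853 ± 976 CPM, against 26134 ± 7411, 32146 ± 6158 and 28735 ± 5858 CPM in those groups. Hba-a3, another adult-type alpha gene, was far lower, at 342 ± 86.0 CPM in PD16 vehicle and 598 ± 125 in GD21 vehicle. The low and high sets of libraries did not overlap for Hba-a1 or Hba-a2 and overlapped for Hba-a3. The split between the main genes was steady: Hba-a1 held 56.7% to 60.6% of adult alpha counts in the group means of all groups. Because Hba-a1 and Hba-a2 are near-identical copies and the handling of reads that fit both was not given in the sources used here, each gene's own level is uncertain, and their sum is firmer.

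Adult beta chains came from 3 genes. Hbb averaged 2555 ± 446 CPM in PD16 vehicle libraries (range 1802 to 3087), 11498 ± 2445 in GD21 vehicle (range 8338 to 14867), 9933 ± 2033 in PD16 Ami25 and 9204 ± 2666 in PD16 Ami50. Hbb-bs averaged 1983 ± 326 CPM in PD16 vehicle and 5962 ± 1510 in GD21 vehicle. For Hbb-b1 the means were 1136 ± 180 CPM (range 775 to 1414) and 4429 ± 1191 (range 3073 to 5963). All 3 were low in every PD16 vehicle and methimazole library and higher in each of the other 53. The share of all genes that separate these sets was not counted. The makeup of the adult beta pool also differed. Hbb-bs held 35.0% ± 0.938 of it in PD16 vehicle (range 33.2% to 36.2%) and 27.1% ± 1.2 in GD21 vehicle (range 25.2% to 28.3%), with 27.9% and 29.3% in PD16 Ami25 and Ami50. Hbb held 45.0% ± 1.86 in PD16 vehicle and 52.8% ± 1.56 in GD21 vehicle, and the ranges of the vehicle groups were apart for both genes. Hbb-b1 stayed between 19.3% and 21.7% in all group means. Like the alpha genes, the adult beta genes are close copies, and reads shared among them could move counts from one to another.

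**Figure D2:**
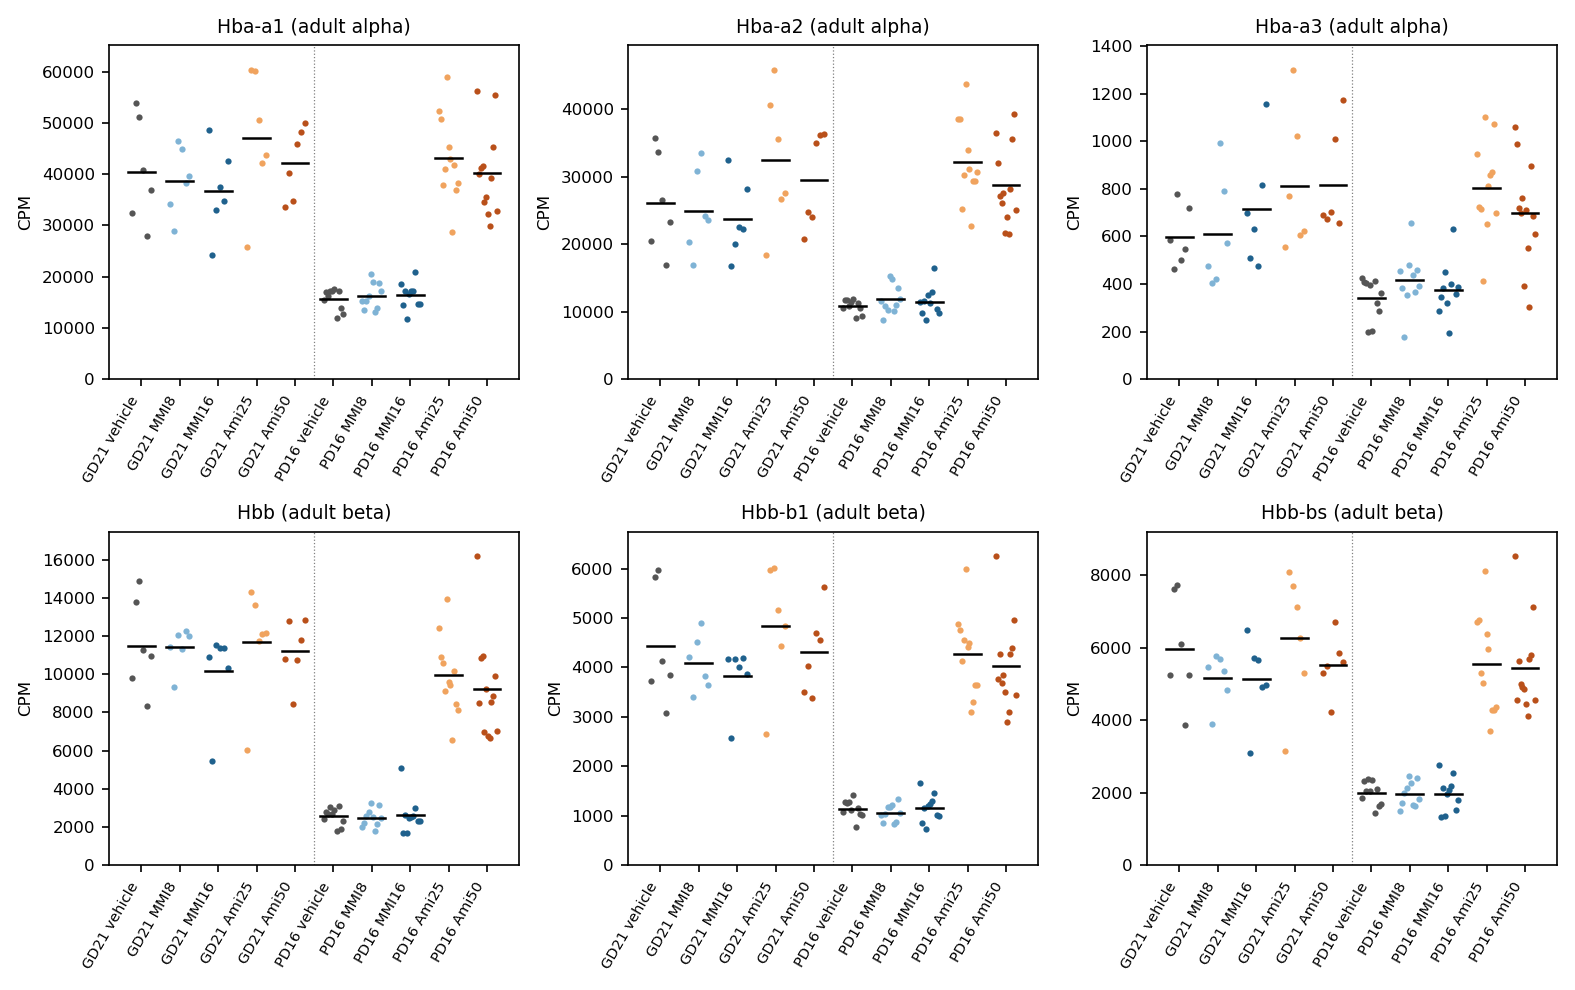
Level of each adult globin per library (points, CPM, axes from 0) in the 10 groups, with the group mean as a line. In each panel the PD16 vehicle and methimazole groups lie lowest, with PD16 vehicle means of 15599 CPM for Hba-a1 and 2555 CPM for Hbb, and the amitrole groups of PD16 lie at the level of the GD21 groups.

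The embryonic share of all globin counts brought these levels together. It was 14.8% ± 2.51 in PD16 vehicle (range 11.6% to 19.4%), 17.1% ± 2.82 in PD16 MMI8 and 16.4% ± 4.28 in PD16 MMI16. It was 0.180% ± 0.0698 in PD16 Ami25 (range 0.0995% to 0.325%) and 0.142% ± 0.0798 in PD16 Ami50 (range 0.0473% to 0.368%). The GD21 groups had means of 0.161% (vehicle), 0.0983% (MMI8), 0.198% (MMI16), 0.229% (Ami25) and 0.275% (Ami50). Ordered by these means, neighbouring groups overlapped in their libraries at every step but 1, the step from PD16 vehicle to GD21 Ami50: the lowest of the 30 PD16 vehicle and methimazole libraries was at 8.79% and the highest of the other 53 at 0.878%. Libraries are numbered in ranges whose meaning the labels do not give, and 1 range (57 to 90) holds both stages. Within it the mean share was 14.4% in PD16 vehicle, 0.146% in GD21 vehicle and 0.146% in PD16 Ami50. Pooled over libraries, 37214 of 249034 globin counts were embryonic in PD16 vehicle, or 14.9% (exact 95% binomial interval 14.8% to 15.1%). In GD21 vehicle they were 985 of 608139, or 0.162% (0.152% to 0.172%). These intervals cover counting error only.

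The switch in share was uneven between the chain types. On the beta side Hbe1 and Hbg1 together made up 46.5% ± 5.67 of beta-like counts in PD16 vehicle libraries (range 39.6% to 56.0%), 52.4% in PD16 MMI8 and 49.8% in PD16 MMI16. On the alpha side Hbz made up 2.42% ± 0.558 of alpha-like counts in PD16 vehicle (range 1.57% to 3.23%), 2.96% in MMI8 and 3.17% in MMI16. The PD16 Ami50 means were 0.621% on the beta side and 0.0153% on the alpha side, close to GD21 vehicle at 0.613% and 0.0114%.

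**Figure D3:**
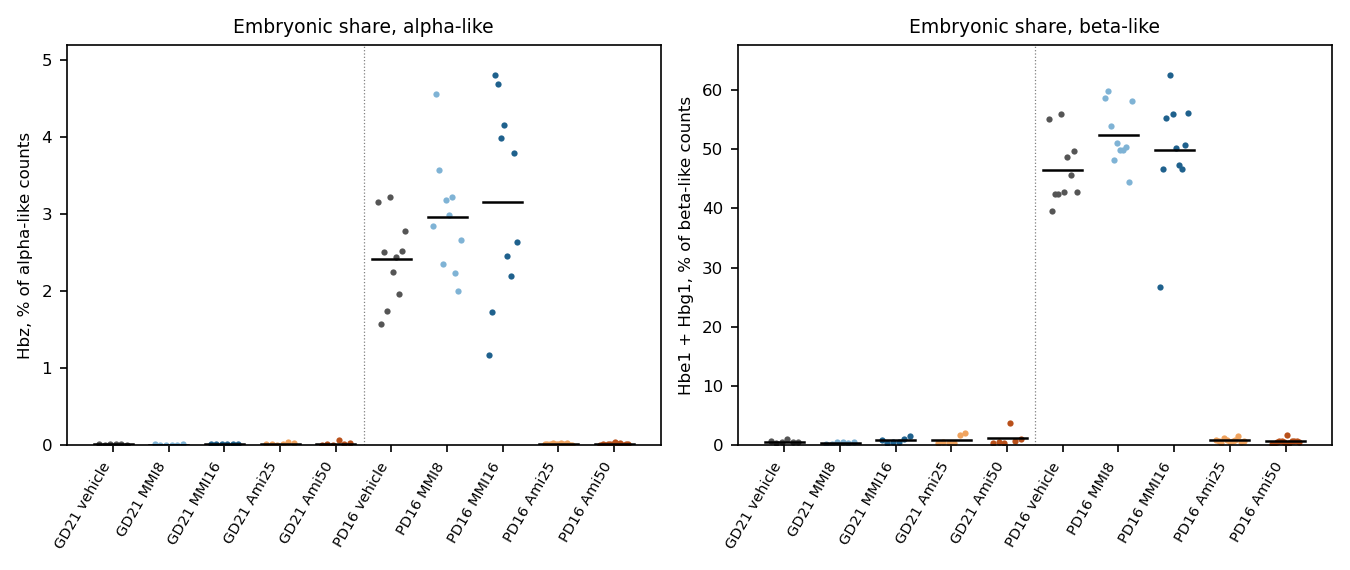
Embryonic share of alpha-like counts (left, Hbz) and of beta-like counts (right, Hbe1 and Hbg1) per library in percent, with the group mean as a line; the axes differ in scale. PD16 vehicle libraries reach 1.57% to 3.23% on the alpha side and 39.6% to 56.0% on the beta side.

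The balance of alpha-like to beta-like counts depended on which members were counted. With all 9 members it was 2.60 ± 0.211 in PD16 vehicle (range 2.26 to 2.82) and 3.04 ± 0.159 in GD21 vehicle (range 2.83 to 3.30), so that PD16 vehicle was the lower. With the 6 adult members alone it was 4.77 ± 0.399 in PD16 vehicle (range 4.21 to 5.42) and 3.06 ± 0.159 in GD21 vehicle (range 2.85 to 3.31), so that PD16 vehicle was the higher. The ranges of the vehicle groups were apart both ways. PD16 MMI8 and MMI16 showed the same pattern, with 2.55 and 2.58 over all members and 5.21 and 5.08 over the adult ones. In PD16 Ami25 and Ami50 both forms of the ratio were nearly the same, at 3.85 and 3.88 and at 3.76 and 3.79. Counts were not divided by transcript length, since 3′-end reads count transcripts rather than bases. How well reads of each chain map was not measured, so the ratios compare groups and are not molar ratios.

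**Figure D4:**
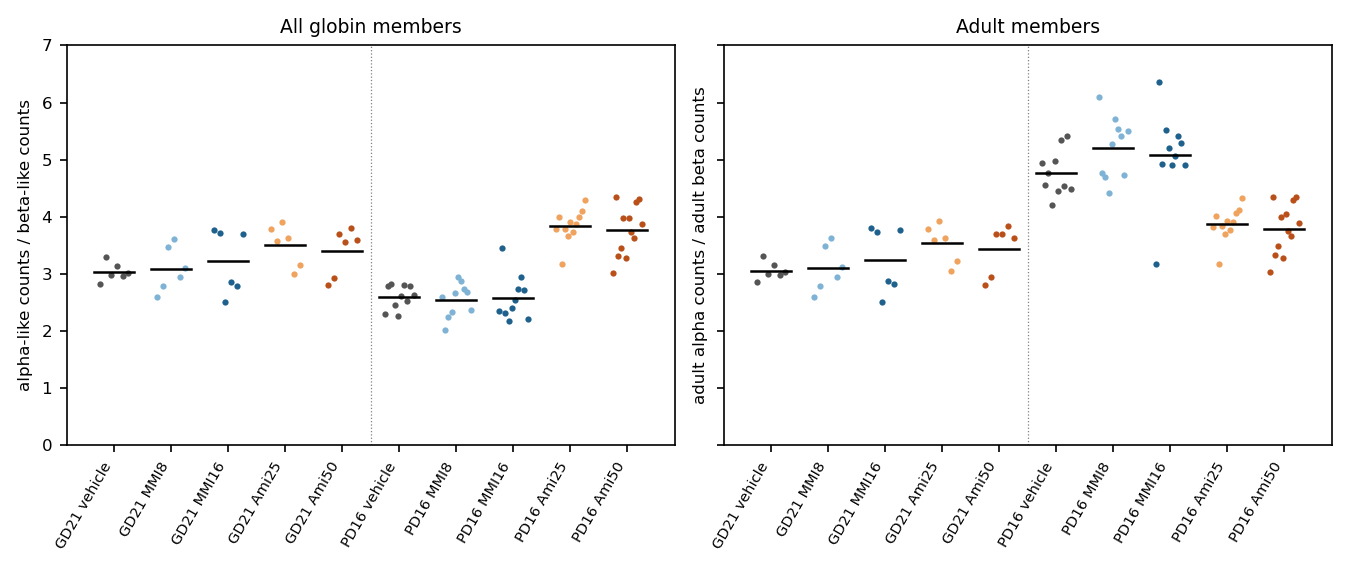
Ratio of alpha-like to beta-like counts per library, over all globin members (left) and over the adult members alone (right), on a shared axis from 0 with group means as lines. PD16 vehicle libraries lie at 2.26 to 2.82 on the left, below GD21 vehicle, and at 4.21 to 5.42 on the right, above it.

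All globin members together took 3.81% ± 0.451 of counts in PD16 vehicle, 4.09% in PD16 MMI8 and 4.05% in PD16 MMI16. In the other groups they took 8.05% to 10.3%. The highest of the 30 PD16 vehicle and methimazole libraries had 5.20% and the lowest of the other 53 had 5.27%, so that the sets nearly met. PD16 vehicle libraries thus had the higher embryonic levels and the lower globin total.

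PD16 MMI16 replicate 9 stood apart within its group. It had 5088 CPM of Hbb, where the next library had 2998, the lowest embryonic share of its group (8.79%), the lowest adult alpha to beta ratio (3.17) and 507 CPM of Alb, the only library of PD16 vehicle or methimazole at 200 or more. Without it the mean embryonic share of PD16 MMI16 was 17.2%, and the next lowest library had 11.8%. Leaving out all 15 libraries high in Alb, this one included, no member was called in PD16 MMI16 against vehicle either.

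The treatment comparisons ask how far libraries labelled with each compound differed from vehicle, or from each other, at each stage. Differences are log2 fold changes from edgeR's quasi-likelihood test with standard errors (SE), with p-values adjusted by the Benjamini-Hochberg method over all genes tested, and a gene is called at an adjusted p under 0.05. Comparisons with vehicle at one stage share the same vehicle libraries.

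At GD21 none of the 9 members was called in any of the 4 comparisons with vehicle, where edgeR called 0 of 6236 genes (0% in each) and 178 (MMI8), 211 (MMI16), 579 (Ami25) and 421 (Ami50) genes had an unadjusted p under 0.05. The largest member differences were those of Hbe1 (1.03, SE 0.62) and Hbz (1.01, SE 0.51) in Ami50, with adjusted p = 0.762 and 0.733. Their ranges overlapped vehicle, and the Hbe1 mean of GD21 Ami50 (252 ± 307 CPM) rested on replicate 88 at 860 CPM, with the next library at 256. In GD21 Ami25 the 2 libraries numbered 57 to 90 had embryonic shares of 0.450% and 0.528%, and the 4 numbered 41 to 56 had 0.0716% to 0.144%. In GD21 MMI16 those number ranges gave 0.268% to 0.340% and 0.102% to 0.183%, and in GD21 MMI8 0.107% to 0.130% and 0.0530% to 0.0637%. In GD21 vehicle and GD21 Ami50 the number ranges overlapped. The part of the library numbers in these values was not tested.

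At PD16 no member was called between methimazole and vehicle. In MMI8 0 of 9 were called while 8.38% of 4906 genes were, and in MMI16 0 of 9 were called while 8.11% of genes were. Hbz showed the largest differences, at 0.34 (SE 0.17, interval -0.01 to 0.68, adjusted p = 0.334) in MMI8 and 0.39 (SE 0.17, interval 0.04 to 0.73, adjusted p = 0.236) in MMI16. For Hbe1 the 95% intervals, not adjusted for multiple tests, were -0.13 to 0.61 and -0.26 to 0.49. For Hbb-b1 they were -0.43 to 0.15 and -0.28 to 0.30. Changes within those bounds remain compatible with the data. Between the methimazole doses 0 of 9 members were called, against 2.08% of genes.

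Between amitrole and vehicle at PD16 all 9 members were called at both doses, in opposite directions for the embryonic and the adult ones. In Ami25 the 3 embryonic members were lower and the 6 adult members higher, where 55.4% of all genes were called, 27.9% higher and 27.5% lower. The same 3 and 6 were called in Ami50, where 53.5% of genes were called, 27.1% higher and 26.5% lower. A call by itself was therefore common in these comparisons, and the sizes say more. Hbz in Ami50 was 62.7-fold lower (log2 fold change -5.97, SE 0.26, adjusted p = 2.19e-26 by edgeR). Hbe1 was 46.9-fold lower (-5.55, SE 0.23, adjusted p = 6.85e-28) and Hbg1 6.41-fold lower (-2.68, SE 0.34, adjusted p = 2.69e-09). The median log2 fold change was -5.55 over the embryonic members and 1.52 over the adult members, against 0.02 over all genes tested.

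Among adult members in Ami50, Hbb rose 3.86-fold (SE of the log2 value 0.19), Hbb-b1 3.78-fold (0.15), Hbb-bs 2.92-fold (0.16), Hba-a2 2.81-fold (0.13), Hba-a1 2.75-fold (0.13) and Hba-a3 2.17-fold (0.19). Their adjusted p-values ran from 2.87e-17 for Hbb-b1 to 1.22e-06 for Hba-a3. Ami25 gave similar sizes, from 49.7-fold lower for Hbz to 4.03-fold higher for Hbb. Without the 8 libraries low in Eif2s3y all 9 members were still called in Ami50, with log2 fold changes of -6.46 for Hbz and -5.97 for Hbe1, while Hbg1 was 4.00-fold lower. Every embryonic member was lower in each Ami25 and Ami50 library than in any vehicle library of the stage, and every adult member but Hba-a3 was higher. How many of all genes were apart in this way was not counted. Between the amitrole doses 0 of 9 members were called and edgeR called 0 of 4906 genes (0%), with 231 at an unadjusted p under 0.05. Hbe1 differed most there (-0.59, SE 0.23, interval -1.03 to -0.15, adjusted p = 0.898).

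Set against methimazole at PD16, amitrole gave the same directions. In Ami25 against MMI8 the 3 embryonic members were lower and the 6 adult members higher, with 48.6% of genes called (24.4% higher, 24.2% lower). In Ami50 against MMI16 the counts of members were the same, with 47.6% of genes called (22.6% higher, 25.0% lower). Hbz was 82.0-fold and Hbe1 50.8-fold lower in Ami50 than in MMI16.

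Between the stages the vehicle libraries moved the other way. In PD16 against GD21 vehicle the 3 embryonic members were higher and the 6 adult members lower, while 47.0% of 6287 genes were called, 25.4% higher and 21.6% lower. Hbz was 78.9-fold higher at PD16 (6.30, SE 0.36, adjusted p = 6.20e-25 by edgeR), Hbe1 37.5-fold (5.23, SE 0.46) and Hbg1 6.42-fold (2.68, SE 0.35). Hbb was 4.88-fold lower (-2.29, SE 0.20), Hbb-b1 4.24-fold (-2.08, SE 0.17), Hba-a1 2.82-fold (-1.50, SE 0.16) and Hba-a3 1.90-fold (-0.92, SE 0.22). No member's range overlapped between the vehicle groups, and the share of all genes with ranges apart was not computed. With the library number range as a term the values were 5.58 for Hbz and 4.12 (17.4-fold) for Hbe1, both still called. Rodent embryonic globins are known to be largely silenced before birth, and the libraries labelled PD16 held the higher embryonic levels. The stage labels may therefore be wrong for some of these libraries, which was not tested, and each PD16 against GD21 value is a difference between libraries so labelled. Marker sums moved between the same groups: the 6 adrenal cortex markers lay at 6979 to 10697 CPM in PD16 vehicle, 13555 to 18913 in GD21 vehicle and 9349 to 31528 in PD16 Ami50, and the 8 testis markers at 80.5 to 232, 25.0 to 43.2 and 2.13 to 12.7 CPM. Only 1 of the 8 testis markers passed the filter on low counts in these comparisons. The 10 liver markers lay, in the same order of groups, at 50.0 to 325 CPM (median 123), 83.0 to 16464 (median 728) and 72.9 to 9793 (median 96.5). Of these liver markers, 9 of 10 were called lower in PD16 than in GD21 vehicle (median log2 fold change -4.84), and all 4 that passed the filter were called higher in PD16 Ami50 than in vehicle (median 3.04). When the 15 libraries high in Alb were left out, all 9 globin members were called in both comparisons. PD16 vehicle held 0 of those libraries. In the main fits 47.0% of all genes were called between the vehicle stages and 53.5% in PD16 Ami50 against vehicle. The part of the adrenal, testis and liver markers in the globin differences was not tested. Stage and treatment cannot be told apart from any other difference in how these groups of libraries were obtained. The comparisons of amitrole with vehicle at PD16 and of the stages in vehicle share the PD16 vehicle libraries.

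MMI8 and MMI16 repeated the vehicle pattern between stages, with 3 members higher and 6 lower in each. The share of genes called was 49.6% (26.5% higher, 23.1% lower) in MMI8 and 47.5% (25.6% higher, 21.9% lower) in MMI16. Hbe1 was 76.8-fold higher at PD16 in MMI8 and 34.4-fold in MMI16, the latter 19.7-fold with the library number range as a term. In Ami25 0 of 9 members were called between the stages, against 11.9% of genes, and Hbe1 differed by -0.56 (SE 0.38, adjusted p = 0.358). With the library number range as a term Hbe1 was called there (-1.17, adjusted p = 0.0373 by edgeR). In Ami50 only Hbe1 was called, lower at PD16 by 2.64-fold (-1.40, SE 0.38, adjusted p = 0.00748), against 7.87% of genes (1.42% higher, 6.46% lower). That call was lost when only the compared libraries were fitted (-1.44, adjusted p = 0.112).

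**Figure D5:**
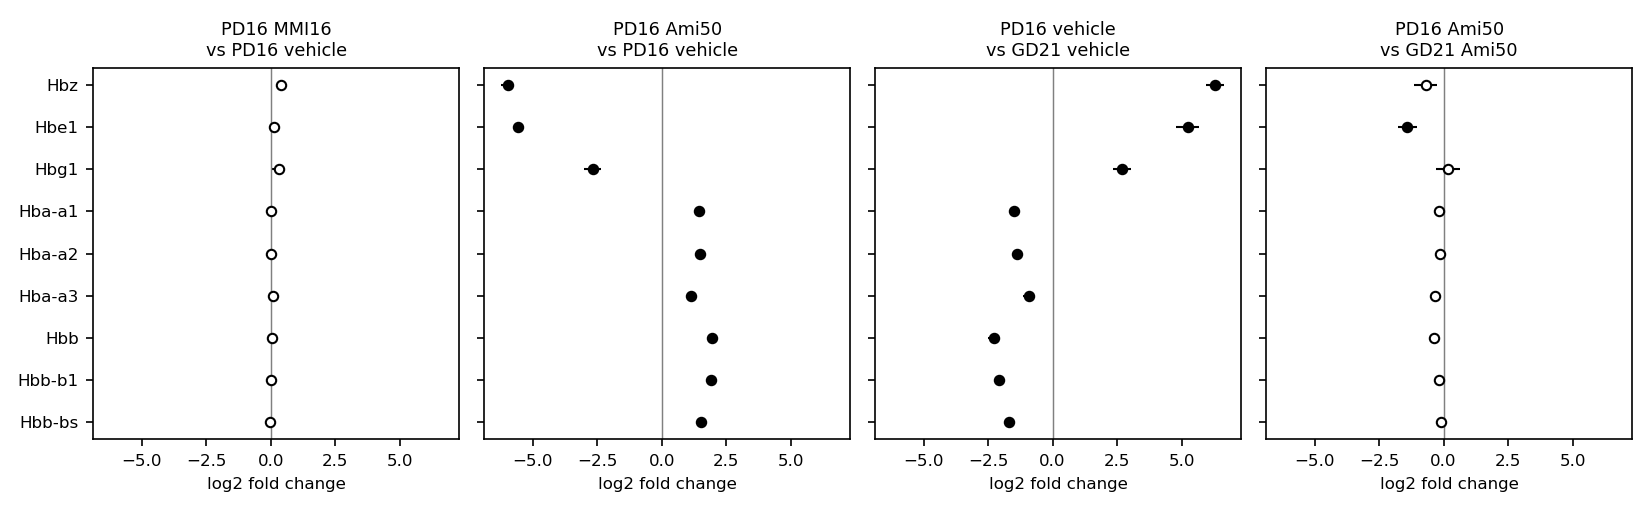
Log2 fold change of each globin member in 4 comparisons (points; whiskers are 1 SE; filled points were called at an adjusted p under 0.05). Embryonic and adult members lie on opposite sides of 0 in PD16 Ami50 against vehicle and in PD16 against GD21 vehicle, while PD16 MMI16 against vehicle stays within 0.39 of 0.

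Whether the stage difference itself differed from that of vehicle was tested by interaction terms. In Ami25 8 of 9 members were called (5 higher, 3 lower), with 30.8% of genes called (15.7% higher, 15.2% lower). In Ami50 again 8 were called, with 32.8% of genes (16.1% higher, 16.7% lower). Hbe1 had interaction values of -5.79 (SE 0.56) and -6.63 (SE 0.58) and Hbb-b1 of 1.78 (SE 0.24) and 1.90 (SE 0.24). Hbg1 had values of -2.81 and -2.52, and of -3.62 and -3.37 when the 15 libraries high in Alb were left out. Hba-a3 was not called (0.79, adjusted p = 0.0505, and 0.61, adjusted p = 0.139). In MMI8 and MMI16 0 of 9 members were called, against 4.36% and 4.98% of genes. With the number range of the libraries as a term Hbe1 was called in MMI8 (1.76, adjusted p = 0.0222).

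Genes known to act in globin switching were read from a list of 26 transcription and chromatin factors, of which 23 were in the table. In PD16 Ami50 against vehicle 6 passed the filter, 0 rose and 3 fell, with a median log2 fold change of -0.51. Of all genes 53.5% were called there, so that 3 of 6 is near the share over all genes. By edgeR, Lmo2, a partner in the erythroid GATA complex, was 6.83-fold lower (log2 SE 0.21, adjusted p = 6.02e-18), Gata2, a factor of blood progenitors and other tissues, 5.53-fold lower, and Dnmt1, the maintenance DNA methyltransferase, 1.58-fold lower. Lmo2 and Gata2 also fell in both PD16 methimazole groups, where no globin member was called. Lmo2 was 4.10-fold and 4.25-fold lower and Gata2 2.25-fold and 3.28-fold lower in MMI8 and MMI16. Endothelial cells express both genes as well, and the summed level of 5 endothelial markers was 481 to 748 CPM in PD16 vehicle, 197 to 337 in PD16 MMI8, 189 to 302 in PD16 MMI16, 151 to 288 in PD16 Ami25 and 150 to 300 in PD16 Ami50. Its part in those falls was not tested. Between the vehicle stages 11 factors passed the filter, 3 were higher at PD16 (Dnmt1 2.04-fold, Gata2 1.65-fold, Hbs1l 1.41-fold) and 1 was lower (Nfe2, an erythroid and megakaryocyte factor, 2.11-fold), with a median of 0.33 against 0.06 over all genes. Of all genes 47.0% were called between these groups, a larger share than in the list.

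Red cell membrane and heme genes followed the adult globins. Of 41 listed genes 36 were in the table. In PD16 Ami50 against vehicle 18 passed the filter, 14 rose and 0 fell (median 0.89, against 0.02 over all genes), where 27.1% of all genes rose and 26.5% fell. The largest rises were those of Car1, a red cell carbonic anhydrase (4.33-fold), Alas2, which starts heme synthesis in red cells (3.44-fold), Car2 (3.35-fold) and Rhd, a blood group protein (2.92-fold). In Ami25 13 of 18 rose and 0 fell, where 27.9% of all genes rose and 27.5% fell. In PD16 MMI8 and MMI16 0 of 18 were called. Between the vehicle stages 23 passed the filter, 0 were higher and 16 lower at PD16 (median -0.60), where 25.4% of all genes were higher and 21.6% lower. Car1 (4.45-fold), Alas2 (3.47-fold), Car2 (3.41-fold) and the Kell antigen gene Kel (3.20-fold) were the most lowered. Alas2 ranged from 74.7 to 165 CPM in the 30 PD16 vehicle and methimazole libraries and from 182 to 603 CPM in the other 53. Over all genes such separation was not counted. Summed over 10 red cell markers other than globins, PD16 vehicle libraries held 405 to 722 CPM and GD21 vehicle libraries 665 to 1787. None of the 10 was at 0 in any group. White cell markers, 8 in all, were at 136 to 197 CPM in PD16 vehicle, 371 to 647 in GD21 vehicle and 233 to 721 in PD16 Ami50. In PD16 Ami25 they were at 225 to 495 CPM. In PD16 MMI8 and MMI16 they were at 65.6 to 124 and 61.0 to 126 CPM. Both ranges lay below that of PD16 vehicle, although no globin member was called in those groups against vehicle. The part of blood content in the adult globin levels was not tested. Of 6 other globin genes 4 were in the table, none passed the filter in any fit, and their sum stayed at or under 39.6 CPM. Hbe2, the other epsilon-type gene of the beta cluster, was at most 4.94 CPM, and Hbbl1 (listed as LOC100134871) ran with the adult genes at 9.95 CPM in PD16 vehicle and 35.8 CPM in GD21 vehicle on average.

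Over all 83 libraries the genes most like the summed adult globins were Alas2 (Pearson's r 0.982), Prdm1 (0.945), LOC100134871 (0.911), Decr1 (0.909) and Tspo (0.905), among 6278 genes. Here r was taken between edgeR's TMM-scaled log2 CPM of a gene (prior count 2) and log2(CPM + 1) of the globin sum. For the summed embryonic globins they were Tcp1 (0.931), Tuba1b (0.928), H2az1 (0.920), Ran (0.919) and Fkbp3 (0.919). With each library taken as its deviation from its group mean, Alas2 (0.896), Prdm1 (0.873), Car2 (0.667), Ahsp (0.627) and Cd52 (0.626) were most like the adult sum. Likeness to the embryonic sum fell to 0.427 for Eif2b1, 0.398 for Bmp7, 0.381 for Ldha, 0.380 for Alas2 and 0.356 for Ciz1. These are descriptions over libraries that share depth and group structure. Within groups, 20 relations between members were computed by permutation of log2(CPM + 1) values, with exact permutation for 6 libraries. Hbz and Hbe1 varied together past the threshold in GD21 Ami50 (n = 6, r = 0.97, rho = 0.94, exact permutation p = 0.0028, adjusted 0.038) and in PD16 MMI16 (n = 10, r = 0.86, rho = 0.68, permutation p = 0.0038, adjusted 0.038). Neither rho passed after adjustment (0.14 each). Without the 2 libraries farthest from the median r was 0.99 and 0.37, so that the relation in PD16 MMI16 rests on those libraries. Hbe1 with Hbb-b1 passed in none of the 10 groups, with r from -0.12 to 0.74.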

How the data were processed

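BRB-seq counts of 83 rat libraries in 10 groups were analysed as deposited. Per the labels, RNA with an integrity score above 6.8 was used. BWA 0.7.4.4 and the rn6 build are named, per the submitters' processing notes. The counting tool, strand setting, annotation and use of molecular identifiers: not given in the sources used here. The table made by the authors holds whole-number counts per gene symbol for each library; totals ran from 202270 to 1627114. CPM and shares were computed from these counts; a group of few counts is limited by counting error. Groups came from the labels. Members and gene lists were chosen with earlier results of these data known. edgeR 4.0.16 (R 4.3.3) fitted quasi-likelihood models with TMM scaling and filterByExpr (minimum count 10): GD21 libraries (6236 genes), PD16 libraries (4906) and all libraries (6287) were each fitted once, with Benjamini-Hochberg adjustment over all genes. SE were taken from the log2 fold change and the F statistic. The scripts were tested on simulated data. Named were all 9 members, up to 4 called genes of each list with the largest fold change and the 5 genes most like each globin sum. Alternatives were DESeq2 1.42.0, other scalings and filters, an older edgeR fit, a term for the library number range and sets without some libraries. Sequences came from RefSeq promoters (GRCr8), used for names, order and these stretches alone.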

Additional observations from a re-analysis of the deposited data

Results flagged for a closer look

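Single libraries stood far from the rest of their group in 7 of the 96 sets of values checked, and chance flags about 1 in 20 groups. In GD21 Ami50, replicate 88 had 860 CPM of Hbe1, where the next library had 256, and an embryonic share of 0.878%, where the next had 0.258%. Hbb was low in GD21 MMI8 replicate 46 (9328 CPM, next 11314), in GD21 MMI16 replicate 48 (5455 CPM, next 10320) and in GD21 Ami25 replicate 51 (6018 CPM, next 11740). Replicate 48 was also low for Hbb-b1, at 2570 CPM with the next at 3878. In PD16 MMI16, replicate 9 was high for Hbb, at 5088 CPM with the next at 2998.

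The difference between stages differed from that of vehicle for 8 members in each amitrole group, by the interaction term of edgeR with adjusted p-values from 2.99e-16 to 0.000621 over both doses. Of all genes 30.8% were called by the same term in Ami25 and 32.8% in Ami50. On the log2 scale the values in Ami25 were -6.64 for Hbz, -5.79 for Hbe1, -2.81 for Hbg1, 1.26 for Hba-a1, 1.26 for Hba-a2, 1.94 for Hbb, 1.78 for Hbb-b1 and 1.42 for Hbb-bs. In Ami50 they were -7.00 for Hbz, -6.63 for Hbe1, -2.52 for Hbg1, 1.34 for Hba-a1, 1.25 for Hba-a2, 1.91 for Hbb, 1.90 for Hbb-b1 and 1.59 for Hbb-bs. The embryonic members had negative values and the adult members positive ones at both doses.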

How the results depend on the processing

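No paired analysis was possible because the number in each title belongs to 1 library and no number is shared between groups. No result changed direction under any alternative run. Of the counts of members called, 270 stayed within 1.5 times the main count and 3 moved. With the library number range as a term 1 member, Hbe1, was called in PD16 Ami25 against GD21 Ami25 (-1.17, adjusted p = 0.0373) and 1, again Hbe1, in the MMI8 interaction (1.76, adjusted p = 0.0222), where the main count was 0 for both. With only the compared libraries fitted 0 members were called in PD16 Ami50 against GD21 Ami50, where the main count was 1 (Hbe1 -1.44, adjusted p = 0.112). The cause was not tested. The Hba-a3 interaction of Ami25, which missed the threshold (0.79, adjusted p = 0.0505), was called under 6 alternatives (0.78 to 0.81). That of Ami50 was called without the libraries with Eif2s3y under 10 CPM (0.98, adjusted p = 0.0258). Of the 20 relations within groups 2 passed the threshold, and 0 did without the 2 libraries farthest from the median, a test over fewer libraries. In GD21 Ami50, a group of 6, r was 0.99 without them, but the few pairings left could hardly reach the threshold. The lost pass there is therefore not read as a change. The other 88 values of shares, ratios and relations did not count as moved. For shares and ratios this meant a move of less than 1 SD, and for the number of relations a value within 1.5 times the main count. An older form of edgeR's quasi-likelihood fit was added after seeing the data and changed no count of members called. Values moved by over 1.5-fold, with the call kept, for Hbz and Hbe1 between the MMI16 stages (5.88 and 4.30 with the number range term), for Hbe1 in the Ami50 interaction (-5.81 with that term) and for Hbg1 in Ami50 without the libraries low in Eif2s3y (-2.31 against MMI16 and -1.80 in the interaction). Depth limits Hbz and Hbg1 in the low groups, where a group held as few as 24 Hbz counts.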
